A study of Sus scrofa with 24 samples.

Results

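The comparison described here set the livers of all pigs of a high residual feed intake line against those of a low residual feed intake line. Residual feed intake is the part of an animal's feed intake that is not accounted for by its growth and maintenance, so a pig with a low value eats less than predicted for the same performance. The line difference was defined as the mean of the 2 high line group means minus the low line mean. It drew on all 24 pigs of the series, 16 of the high line and 8 of the low line.

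Liver was sampled at 115 kg body weight. The low line pigs (RFIneg) and 1 group of high line pigs (RFIpl) ate ad libitum, and the other group of high line pigs (RFIplR) was restricted to the feeding level that the low line showed. Each group held 8 pigs, each hybridised once with Cy3 to a porcine 60-base oligonucleotide array. The labels give no sex, age, litter, sire or generation of selection, and all pigs carry the background of their own line, so that drift or founder differences between lines cannot be told apart from selection. They do not say whether pigs within a line were related, so p-values measure the spread between these pigs.

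The liver sets whole-body nutrient use by making fat, glucose, urea, plasma proteins and bile. Its arginase ends the urea cycle and yields ornithine, the starting point of polyamine synthesis. Growth hormone acts on hepatocytes through the STAT5 proteins, and interferon and microbial signals act on the same cells through receptor-linked kinases and transcription factors. Selection for feed efficiency has been studied in this organ for these reasons, and feed intake itself is known to act on liver gene expression.

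Between 63.2% and 72.7% of spots were well above background on an array. The share was 67.8% ± 2.77 (SD, n = 8) in the low line and 68.8% ± 2.86 (SD, n = 16) in the high line, a difference of 1.01 percentage points with a two-sided exact permutation p of 0.419. Within the high line it was 70.2% ± 2.28 in RFIpl and 67.4% ± 2.81 in RFIplR (SD, n = 8 each), so RFIpl stood above both other groups. All 11 hepatocyte markers measured, among them albumin (ALB), transthyretin (TTR) and HNF4A, were well above background on every array, and none passed the threshold for the line difference. Their median line difference was -0.0021 on the log2 scale.

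Of 29665 probes tested, 164 (0.553%) passed an adjusted p of 0.05 in limma's moderated test with Benjamini-Hochberg adjustment. Signal was higher in the high line for 87 of these probes (0.293% of those tested) and lower for 77 (0.26%). The median size of the difference was 0.73 on the log2 scale, and 48 probes differed more than 2-fold. Such probes are called higher or lower from here on. At an unadjusted p of 0.05, 12.8% of all probes passed.

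RFIpl and RFIplR each differed from RFIneg in the same direction for all 164 probes. The direction held on both scan days too, and on all 6 slides for 132 of them. These probes were picked by the mean of both groups over the same arrays, which favours a shared direction in advance. The sign counts are therefore a description. Fitted alone, scan day 1 gave 22 probes past the threshold and scan day 2 gave 15, with 11 of the 164 among them on each day. The groups were uneven over the days, and of the low line only RFIneg 1, 5 and 7 were scanned on day 1. Of the 164 probes, 46 also passed in RFIpl against RFIneg alone, where 48 probes (0.162%) passed in all. RFIplR against RFIneg gave 68 probes (0.229%), of which 59 were among the 164, and 27 of the 164 passed in both. For 86 probes neither group on its own reached the threshold, and 11 probes passed in a single group but not over the whole line. The 2 groups were set against the same 8 low line pigs, so these counts are not independent of one another.

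Feeding level within the high line was tested by RFIplR minus RFIpl. With equal group sizes its estimate is not correlated with that of the line contrast. Both tests share each probe's estimate of the spread, so their p-values are not independent. The feeding test gave 0 probes (0%) at an adjusted p of 0.05 in limma and 1594 (5.37%) at an unadjusted p of 0.05. Among the 164 line probes, 10 (6.10%) had an unadjusted feeding p under 0.05, close to that background, and their smallest adjusted p was 0.693. The feeding difference was under 0.5 times the size of the line difference for 157 of them. These probes were picked for a large line difference, so the relation of sizes is a description.

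**Figure D1:**
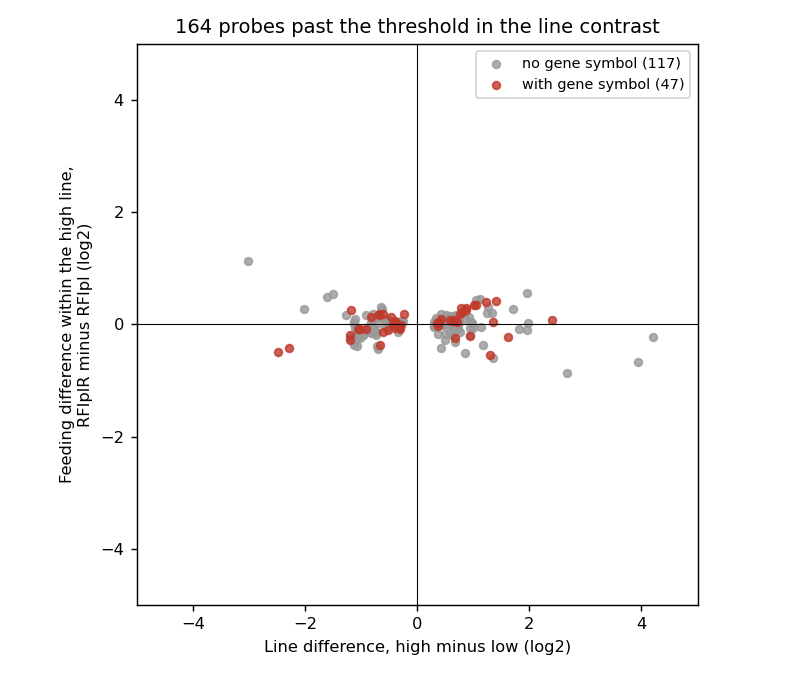
Each point is 1 of the 164 probes past the threshold in the line contrast. The x axis is the line difference and the y axis the feeding difference within the high line, both in log2 units; red points carry a gene symbol (47) and grey points do not (117). The points spread along x from -3.02 to 4.21 and lie within 1.13 of 0 along y.

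Of the 164 called probes, 47 carry a single gene symbol and name 39 genes, 19 higher and 20 lower in the high line. The probes below are printed because 2 pairs of near-identical array probes bear on what a line difference measures, and because the largest differences were on probes that no gene names. All are written 5′ to 3′ as on the array, whose files list no genome position for them. Capitals mark the longest identical run of bases in a pair, outside which the probes can match further.

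ZAR1L, first probe: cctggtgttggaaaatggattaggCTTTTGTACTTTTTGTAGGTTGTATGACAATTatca
ZAR1L, other probe: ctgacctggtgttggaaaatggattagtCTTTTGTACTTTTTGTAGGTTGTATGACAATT
S100A4: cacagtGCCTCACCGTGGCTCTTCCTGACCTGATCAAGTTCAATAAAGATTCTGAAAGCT
A_72_P505367: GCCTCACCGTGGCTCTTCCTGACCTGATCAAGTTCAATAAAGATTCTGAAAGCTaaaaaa
A_72_P182911: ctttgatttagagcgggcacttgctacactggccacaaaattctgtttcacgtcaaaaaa
A_72_P205617: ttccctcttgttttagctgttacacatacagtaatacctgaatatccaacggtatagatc
A_72_P163516: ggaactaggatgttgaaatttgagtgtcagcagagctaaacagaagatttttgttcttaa
A_72_P427894: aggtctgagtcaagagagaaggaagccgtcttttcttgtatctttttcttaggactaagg
A_72_P050711: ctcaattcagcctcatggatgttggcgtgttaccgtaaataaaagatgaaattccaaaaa

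The ZAR1L probes matched over 55 bases with 1 substitution, G24T, counted from the 5′ end of the first probe. They gave line differences of -2.28 and -2.49. The S100A4 probe and A_72_P505367 were identical over 54 bases and gave -0.66 and -0.72, so that the unnamed probe overlaps the S100A4 sequence. Both pairs gave a like difference from overlapping sequence. Overlap did not always bring a second call. The called RPL14 probe, at -0.24, shares runs of 26 or 32 bases with RPL14 probes at -0.14, -0.19 and -0.14, none past the threshold.

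Signals below are on a log2 scale relative to the 75th percentile of their array, so 0 is the level of a fairly bright probe and differences are log2 fold changes. Values of different probes are not compared. Where a gene is given with ranges, each group is given by its lowest, median and highest pig.

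Among genes of polyamine and protein turnover, OAZ3 and UBD were higher. OAZ3 encodes antizyme 3, a member of the family that binds ornithine decarboxylase and limits polyamine synthesis. Its signal ran from -2.86 through -2.33 to 0.23 in RFIneg, from -0.39 through 0.57 to 0.88 in RFIpl and from -0.53 through 0.62 to 1.06 in RFIplR. A single low line pig, RFIneg 7, reached the level of the high line and the other 7 lay below all 16 high line pigs. The line difference was 2.40 ± 0.30 (SE), 5.27-fold, with an adjusted p of 0.000147, and the second OAZ3 probe also passed, at 1.35.

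UBD encodes ubiquitin D, also called FAT10, a ubiquitin-like modifier that targets proteins to the proteasome and is inducible by interferon gamma and tumour necrosis factor. It ran from -1.22 through -0.75 to 0.39 in RFIneg, from 0.13 through 1.23 to 1.64 in RFIpl and from 0.36 through 0.79 to 1.37 in RFIplR. All but 2 of the 16 high line pigs exceeded every low line pig. The line difference was 1.61 ± 0.19 (SE), 3.06-fold, with an adjusted p of 5.55e-05, and the single probe passed in both high line groups.

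Among metabolic genes, ARG1, SLC2A4 and CYP3A29 were higher. ARG1 is liver arginase, which splits arginine into urea and ornithine. Its signal ran from 5.64 through 5.84 to 6.68 in RFIneg, from 5.87 through 6.77 to 7.15 in RFIpl and from 6.25 through 6.97 to 7.64 in RFIplR. The groups overlapped, RFIneg 6 being the highest low line pig, and 11 of 16 high line pigs exceeded all 8 low line pigs. The difference was 0.87 ± 0.17 (SE; adjusted p = 0.0196), 4 of the 5 ARG1 probes passed, and the fifth was at 0.77.

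SLC2A4, the insulin-responsive glucose transporter GLUT4, known mainly from muscle and fat, ran from -0.26 through 0.45 to 1.09 in RFIneg. It ran from 0.24 through 1.25 to 1.72 in RFIpl and from 0.95 through 1.37 to 1.97 in RFIplR. The groups overlapped, with 13 of 16 high line pigs above all low line pigs. The difference was 0.88 ± 0.17 (SE; adjusted p = 0.0168), but the gene's other 2 probes lay at 0.085 and 0.25 and did not pass. CYP3A29, a drug- and steroid-oxidising cytochrome P450, was 0.66 ± 0.14 (SE) higher (adjusted p = 0.0338), with its other 2 probes at 0.46 and 0.55.

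Genes with roles in immunity were called in both directions. SYK, a tyrosine kinase downstream of immune receptors, was 0.95 ± 0.15 (SE) higher (adjusted p = 0.0032). It was well above background on 3 of 8 low line arrays, 8 of 8 RFIpl arrays and 6 of 8 RFIplR arrays. The called probe thus entered the test only through the groups in which it is high. The second SYK probe differed by 0.16 and did not pass (adjusted p = 0.475). PIGR, which carries IgA across epithelia and into bile, was 0.68 ± 0.15 (SE) higher (adjusted p = 0.0392), with its second probe at 0.61 and not past the threshold. CYTH4, a guanine-nucleotide exchange factor of blood cells, was 0.61 ± 0.14 (SE) higher (adjusted p = 0.0431).

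TLR5, the receptor for bacterial flagellin, was lower by -0.92 ± 0.20 (SE; adjusted p = 0.0309). Its low line values ran from -2.96 through -1.54 to -1.17, against -3.37 through -2.83 to -2.22 in RFIpl and -3.34 through -2.80 to -2.41 in RFIplR. The groups overlapped, and only 3 of 16 high line pigs lay below every low line pig. S100A4, a calcium-binding protein of fibroblasts and leukocytes, was lower by -0.66 ± 0.14 (SE; adjusted p = 0.0301), a difference of -0.24 on the first scan day and -1.03 on the second.

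APCS, serum amyloid P, an acute phase plasma protein made by hepatocytes, gave opposite results on its 2 probes. The called probe was lower by -1.17 ± 0.25 (SE; adjusted p = 0.0283). The other stood at 0.71 ± 0.20 (SE) and did not pass (adjusted p = 0.105). No direction can be given for the gene.

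HPSE, heparanase, which cuts heparan sulfate of the matrix and cell surface, was not well above background on any of the 8 low line arrays, but was on 6 of 8 RFIpl and 8 of 8 RFIplR arrays. It ran from -6.40 through -5.87 to -5.20 in RFIneg, from -5.46 through -4.68 to -4.04 in RFIpl and from -4.70 through -4.25 to -3.92 in RFIplR. All but 1 high line pig exceeded the low line. With low line values raised to at least the lowest signal that counts as above background, the mean high line signal was 1.71-fold higher. That mean includes the RFIpl arrays on which the probe was not above background. With another background correction, given below, the line difference was -0.068. The adjusted p in limma was 4.28e-05, but the probe entered the test only through the groups in which it is high, and the low line level is a bound. The second HPSE probe differed by 0.51 and did not pass.

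Genes of cell shape, guidance and RNA handling made up the rest of the higher group. NTN1, the guidance cue netrin-1, was 0.79 ± 0.14 (SE) higher (adjusted p = 0.0078), with ranges of 0.01 through 0.53 to 1.21 in RFIneg, 0.68 through 1.20 to 1.82 in RFIpl and 0.98 through 1.56 to 1.86 in RFIplR. The second NTN1 probe was at 0.28 and did not pass (adjusted p = 0.215). ESRP1, an epithelial splicing regulator, differed by 0.78 and RNASE12, of the ribonuclease A family, by 0.70, both from probes above background on 2 of 8 low line arrays. Both probes entered the test only through the high line groups, in which they are high. The other ESRP1 probe was at 0.65 and did not pass. CCDC37, a coiled-coil protein, differed by 0.77 and MTRF1, a mitochondrial translation release factor, by 0.60; the 3 other MTRF1 probes lay between 0.02 and 0.06. Adjusted p-values of the called probes of ESRP1, RNASE12, CCDC37 and MTRF1 lay between 0.0136 for MTRF1 and 0.0431 for RNASE12.

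The background correction mattered, and not only for the dim genes. With normexp in place of the scanner's own correction, SYK stood at -0.11, HPSE at -0.068, ESRP1 at -0.14, RNASE12 at -0.12 and CYTH4 at -0.034, none past the threshold and all of opposite sign. OAZ3 at 1.67, UBD at 1.29, NTN1 at 0.79, SLC2A4 at 0.75 and CYP3A29 at 0.81 remained past it. ARG1 stood at 0.88 there with an adjusted p of 0.137. STAT5A, MTRF1, TLR5, P2RY1, PTDSS1 and APCS kept their direction but did not pass. The same held for PIGR, HSD17B1, COQ3, HSD3B1 and S100A4. Of the 36 named genes and probes, 11 kept their call, 20 kept their direction only and 5 changed sign.

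Of the lower genes, ZAR1L had the largest fitted difference. It belongs to the zygote arrest family, RNA-binding proteins known from oocytes and early embryos. Its first probe ran from -4.64 through -2.85 to -2.05 in RFIneg, from -5.45 through -5.13 to -4.60 in RFIpl and from -6.45 through -5.50 to -4.85 in RFIplR. The ranges touched only at the lowest low line pig, and 15 of 16 high line pigs lay below all low line pigs. The fitted line difference was -2.28 ± 0.24 (SE), with an adjusted p of 3.27e-05. Over the alternative settings it ran from -2.51 to -0.92, and scan day 2 alone was the only one in which it did not pass. This probe was well above background on 8 of 8 low line, 6 of 8 RFIpl and 1 of 8 RFIplR arrays, and the other on 8 of 8, 0 of 8 and 1 of 8, so the high line level was measured on part of the arrays only. The other probe entered the test only through the low line, in which it is high.

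KLF3, a Krüppel-like transcriptional repressor, was lower on 1 of its 4 probes, by -1.19 ± 0.23 (SE; adjusted p = 0.0169). That probe ran from -0.24 through 0.26 to 0.95 in RFIneg, from -1.65 through -0.98 to 0.44 in RFIpl and from -1.48 through -1.11 to 0.20 in RFIplR. Most high line pigs were low, but 3 RFIpl pigs and 1 RFIplR pig lay within the low line range. The other 3 KLF3 probes differed by -0.0011, -0.10 and -0.18.

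In signalling, STAT5A, a transcription factor activated by growth hormone and prolactin receptors, was lower. Its signal ran from -2.43 through -2.30 to -1.89 in RFIneg, from -2.98 through -2.61 to -2.47 in RFIpl and from -2.80 through -2.68 to -2.55 in RFIplR. Every high line pig was below every low line pig. The difference was -0.44 ± 0.071 (SE), 1.35-fold, with an adjusted p of 0.0030. It was -0.44 on each scan day, and the second probe, at -0.36, did not pass (adjusted p = 0.0736).

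Over all probes, the 16 high line pigs lay wholly above the 8 low line pigs on 4 probes (0.0135%) and wholly below on 5 (0.0169%), of which 4 and 4 were among the 164. The named ones were STAT5A and SMYD3, a lysine methyltransferase of the SET and MYND domain family, which was 0.38 ± 0.065 (SE) higher (adjusted p = 0.0054). The other SMYD3 probes were at 0.13 and 0.10 and did not pass. A probe described as WD repeat domain 26, singled out after its values were seen, was lower by -0.26 ± 0.052 (SE; adjusted p = 0.0203) with no overlap.

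RGS5, a regulator of G-protein signalling used as a marker of pericytes, was lower on both of its probes. The probe with the smaller p ran from -2.62 through -1.34 to -1.09 in RFIneg, from -3.24 through -2.71 to -1.60 in RFIpl and from -3.32 through -2.64 to -2.30 in RFIplR, with overlap. It differed by -1.02 ± 0.22 (SE; adjusted p = 0.0307) and the other by -1.19 ± 0.26 (SE). P2RY1, a purinergic receptor for ADP, was lower by -0.68 ± 0.14 (SE; adjusted p = 0.0269), and its other 2 probes were at -0.69 and -0.48.

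HSD3B1, which makes steroids such as progesterone from their 3-beta-hydroxy precursors, was lower by -0.61 ± 0.14 and -0.67 on its 2 probes, both past the threshold. HSD17B1, an oestradiol-forming dehydrogenase, was lower by -0.40 ± 0.085 (SE; adjusted p = 0.0283), while its dim second probe was at 0.069. COQ3, a methyltransferase of ubiquinone synthesis, was lower by -0.61 ± 0.12 (SE; adjusted p = 0.0196) on 1 of 4 probes, the others being between -0.30 and -0.10. PTDSS1, phosphatidylserine synthase 1, was lower by -0.39 ± 0.082 (SE; adjusted p = 0.0269).

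The remaining lower genes among the 15 largest were C4H8orf37, at -1.05 and -0.82 on its 2 probes, C4H8orf34, at -0.51, and RIIAD1, at -0.47 with its other probes at -0.52 and -0.49. The other C4H8orf34 probe was at -0.19 and did not pass. Beyond the 15 of each direction, named here to complete the count, CLDN7, a tight junction claudin, MTDH, SMYD3 and NOC4L were 0.35 to 0.43 higher. The other MTDH probes, both brighter, were at 0.098 and 0.21 and did not pass. C14H1orf198, EML4, PTBP3, RSF1 and the ribosomal protein gene RPL14 were lower, with differences between -0.37 and -0.24. The other C14H1orf198 probes lay between -0.30 and -0.0069 and did not pass.

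**Figure D2:**
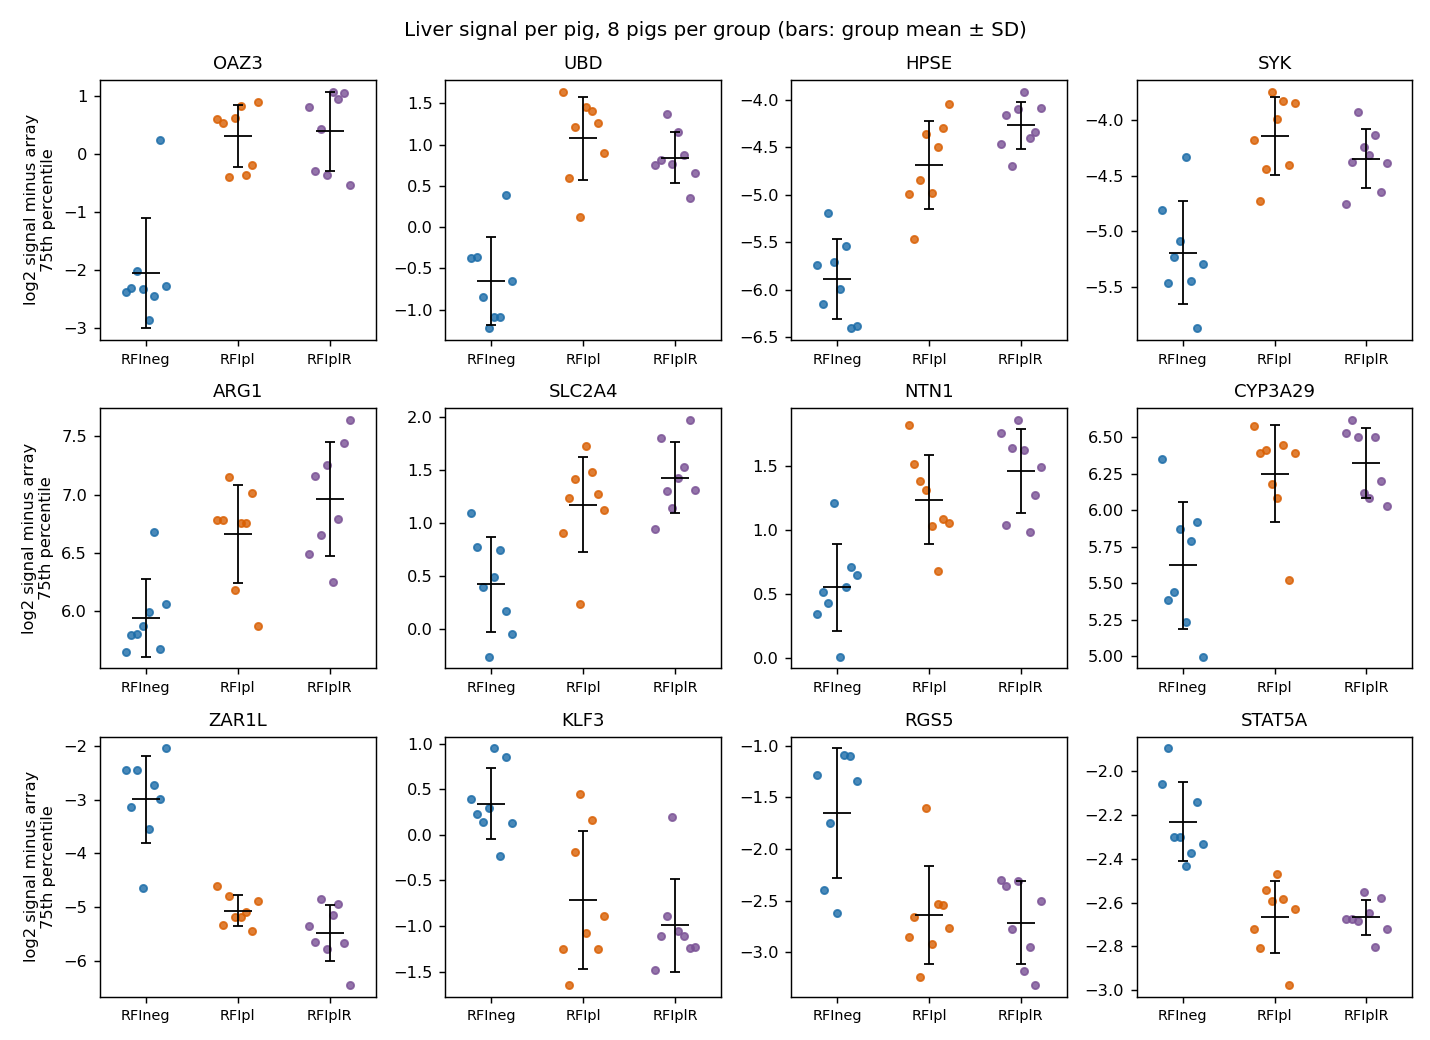
Signal per pig (y axis, log2 signal minus the array's 75th percentile) for 12 called genes in the 3 groups of 8 pigs. Points are pigs, and bars show the group mean ± SD. The RFIpl and RFIplR means lie on the same side of the RFIneg mean in every panel, STAT5A has no overlap between lines, and a single RFIneg pig lies with the high line for OAZ3, at 0.23.

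Other probes of the called genes were compared next. Of the 39 genes, 30 had more than 1 measured probe and 6 had more than 1 called probe. Of the 59 other probes of these genes, 55 had the same sign as the called one. The 4 exceptions included 1 probe each of APCS, HSD17B1 and RSF1. Some of the same sign differed far less between the lines than the called probe, as for KLF3, MTRF1 and SLC2A4 above.

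**Figure D3:**
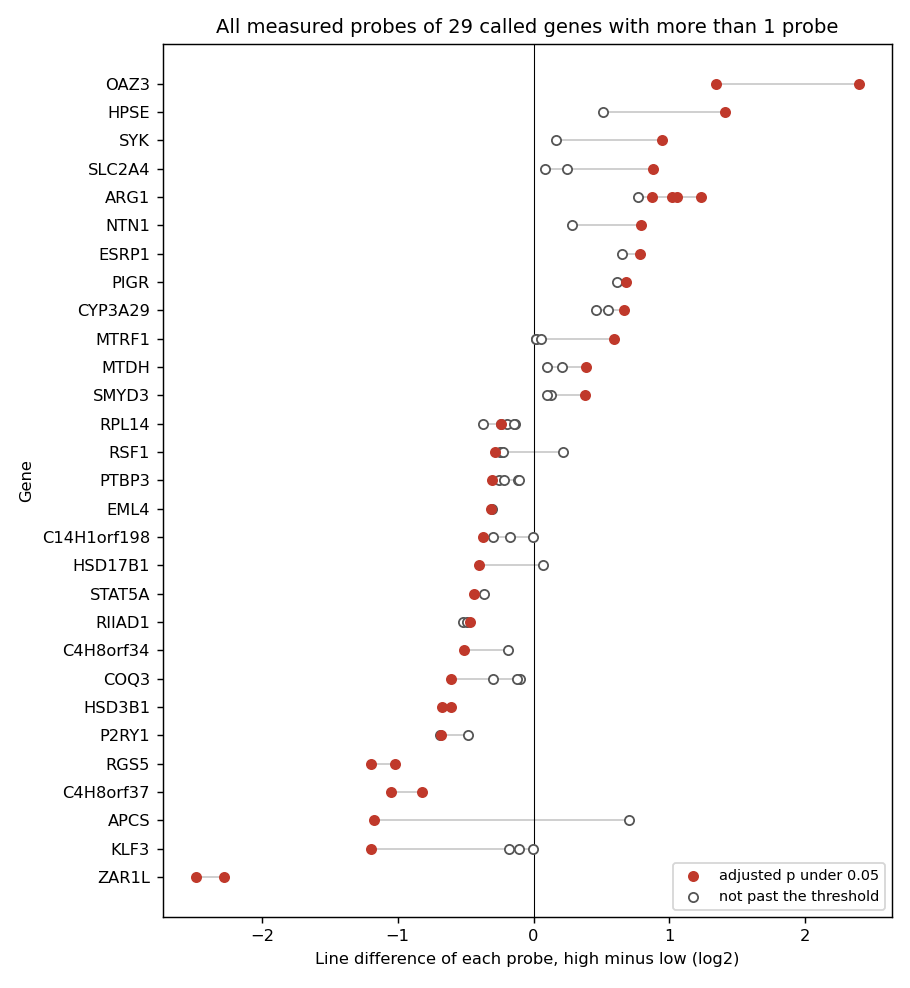
Line difference (x axis, log2) of every measured probe of 29 of the called genes with more than 1 probe (y axis). Filled red points passed an adjusted p of 0.05 and open points did not. ARG1, OAZ3, ZAR1L, RGS5, HSD3B1 and C4H8orf37 have more than 1 filled point, whereas APCS has probes at -1.17 and 0.71.

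Among the 117 called probes without a symbol, 44 were described by similarity to a protein, 38 as cDNA clones and 35 as unknown. Among those with the 3 largest differences in each direction, several had pigs of 1 line at separate levels. For A_72_P182911, from an eye cDNA, 4 low line pigs lay between -7.51 and -7.12 and were not well above background, and the other 4 lay between -0.14 and 0.85. All 16 high line pigs lay between -0.077 and 0.95, within or just above the upper low line level. The line difference of 4.21 ± 0.96 (SE; adjusted p = 0.0427) rested on these 4 pigs.

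A_72_P163516, a cDNA described without a protein, showed the same form. It was well above background on 3 of 8 low line arrays, 8 of 8 RFIpl and 7 of 8 RFIplR arrays, and differed by 2.67 ± 0.62 (SE; adjusted p = 0.0458). Over the alternative settings its difference ran from 0.31 to 3.93, and it did not pass with normexp. The low line pigs at background on this probe were not the same 4 as above, since RFIneg 3 and RFIneg 7 were high on this probe and low on A_72_P182911. A_72_P163516 and A_72_P182911 both entered the test only through the high line groups, in which they are high. A_72_P205617, a liver cDNA clone, ran from -5.44 through -2.29 to -1.05 in RFIneg, from -1.18 through 2.15 to 3.02 in RFIpl and from -1.10 through 0.97 to 2.58 in RFIplR. It was 3.94 ± 0.61 (SE) higher (adjusted p = 0.0027), with 14 of 16 high line pigs above all low line pigs.

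In the other direction, A_72_P427894 was well above background in all 8 low line pigs, in 1 of 8 RFIpl pigs and in 3 of 8 RFIplR pigs. It thus entered the test only through the low line, in which it is high. Its low line values ran from -4.63 through -3.36 to -2.49. The high line pigs above background were RFIpl 3 at -4.26 and RFIplR 1, 4 and 6 between -3.82 and -3.31, while the other 12 lay between -7.66 and -6.85. The line difference was -3.02 ± 0.54 (SE; adjusted p = 0.0078). Over the alternative settings this difference ran from -3.38 to -0.78, and the probe did not pass with normexp.

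A_72_P050711 was lower by -1.60 ± 0.36 (SE; adjusted p = 0.0409), with low line pigs from 2.84 through 5.40 to 6.15 and high line pigs from 2.81 to 4.76. RFIneg 3 and RFIneg 6 lay among the high line. A_72_P040846, described as a homolog of the protein of C4H8orf37, was lower by -2.01 ± 0.37 (SE; adjusted p = 0.0095), and 2 low line pigs lay within the high line range. Its difference was -0.71 on the first scan day and -2.78 on the second, and the direction held on 4 of 6 slides. It did not pass with normexp, on scan day 1 alone or without slide 3. This probe and both C4H8orf37 probes gave the same direction.

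**Figure D4:**
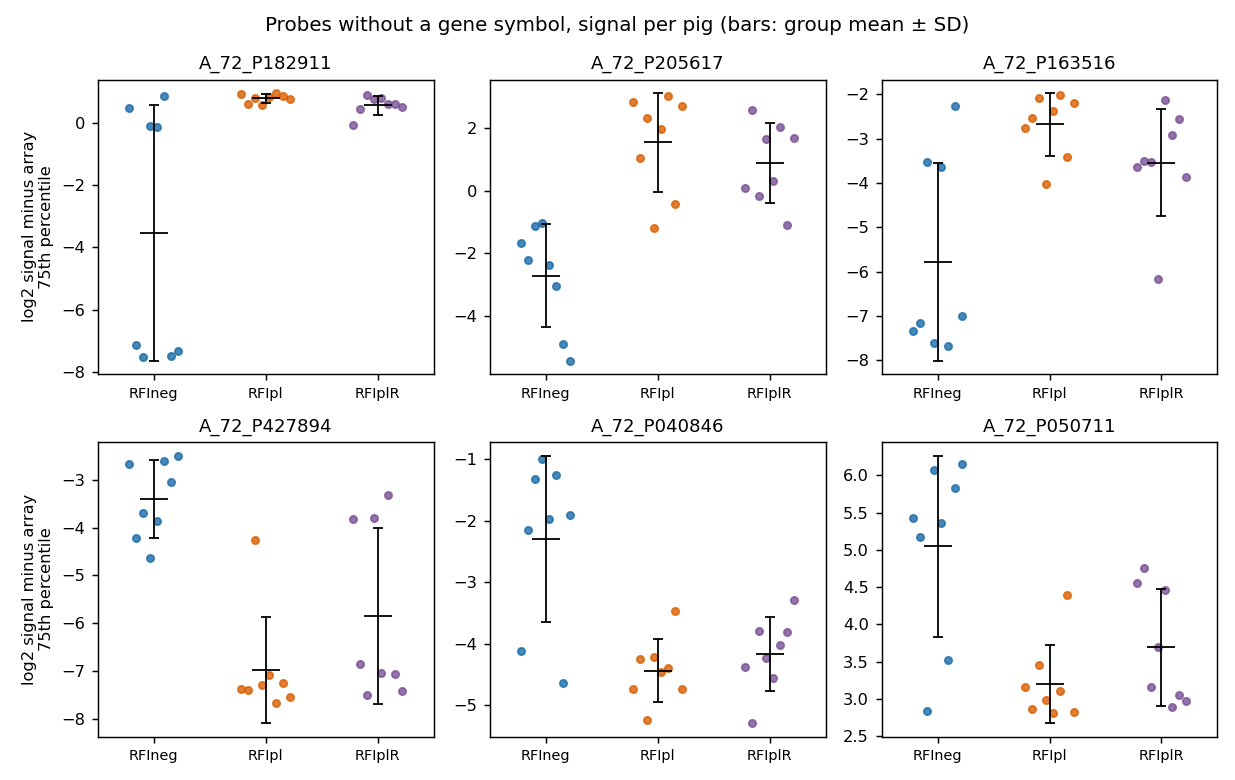
Signal per pig (y axis, log2 signal minus the array's 75th percentile) for the 6 probes without a symbol that had the largest differences. Points are pigs of the 3 groups, and bars show the group mean ± SD. For A_72_P182911 the low line splits into 4 pigs near -7 and 4 near 0, and for A_72_P427894 4 of 16 high line pigs lie at the low line level.

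Some called probes of this kind were described as enzymes and are named here after their values were seen, which gives no theme. The 2 probes described as glutathione S-transferase mu 2, which conjugates glutathione to foreign compounds, were higher, by 1.95 and 0.72. Probes described as carnitine palmitoyltransferase 2, acyl-CoA synthetase long-chain 3 and short/branched chain acyl-CoA dehydrogenase were higher by 1.25, 1.13 and 0.75. The matches rest on partial sequence similarity. Of the 17 genes measured in the list of fatty acid oxidation and ketogenesis, 0 passed in limma and 0 had an unadjusted p under 0.05, with line differences from -0.36 to 0.30 and a median of 0.060.

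Leaving out 1 pig at a time changed no direction among the 36 named genes and probes. They were picked with all 24 pigs, so a kept direction is a description. The calls of OAZ3, UBD, HPSE, SYK, SLC2A4, ARG1, NTN1, MTRF1, ZAR1L, KLF3, C4H8orf37, STAT5A and 3 probes without a symbol held with each of the 24 pigs left out. COQ3 lost its call only without RFIneg 8, P2RY1 without RFIneg 1 or 2, and PTDSS1 without RFIneg 3, 4 or 6. CCDC37, APCS, RGS5 and S100A4 each lost it without any 1 of 4 pigs, namely RFIneg 1, 2, 4 and 7 for CCDC37, RFIneg 3, 6, 7 and 8 for APCS, RFIneg 1, 6, 7 and 8 for RGS5 and RFIneg 1, 2, 3 and 6 for S100A4. TLR5 lost it without RFIneg 3, 5, 6, 7 or 8, and HSD17B1 without RFIneg 2, 3, 4, 7 or 8. CYP3A29 depended in this way on 6 pigs, C4H8orf34 on 10, PIGR and RIIAD1 on 11, HSD3B1 on 12, ESRP1 on 14, CYTH4 on 16, A_72_P182911, A_72_P163516 and A_72_P050711 on 18 and RNASE12 on 19. Their adjusted p stayed at or below 0.103 in these fits. Leaving out more pigs at once cost more calls: 20 of the 36 without slide 3, and 23 of the 36 without RFIneg 7 and RFIneg 8. ARG1, SLC2A4 and KLF3 did not pass in either of these settings, and ARG1 did not pass with a replicate block. With slide as a fixed block, MTRF1, S100A4, COQ3, C4H8orf34, PTDSS1, CCDC37, ESRP1, APCS, HSD3B1, RIIAD1, A_72_P163516 and A_72_P050711 kept their direction but did not pass, with adjusted p between 0.0524 and 0.0824.

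Called genes also lay near one another. In the order of protein-coding genes in RefSeq's Sscrofa11.1 annotation, 38 of the 39 called genes could be placed, and 12 of them (31.6%) had another called gene within 20 genes. The same was true of 346 of 4300 other measured genes (8.05%). The 12 fell into 5 neighbourhoods, and in 3 of these the called genes went in opposite directions.

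OAZ3, 2.40 higher, and RIIAD1, lower by -0.47, were separated by a single gene. SMYD3, 0.38 higher, and TLR5, lower by -0.92, spanned 7 genes. HSD17B1 and STAT5A, both lower, spanned 5 genes, and STAT3, which lies beside STAT5A and mediates interleukin 6 signals, was at 0.71 ± 0.20 (SE) without passing (adjusted p = 0.0949). CLDN7 and SLC2A4, adjacent, were both higher.

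The fifth neighbourhood held 4 called genes within 17: MTDH and ESRP1 higher, PTDSS1 and C4H8orf37 lower. Between them, SDC2 at -0.076, UQCRB at 0.023, NDUFAF6 at 0.16 and DPY19L4 at -0.053 were measured and did not pass. TP53INP1, a p53-inducible protein of autophagy, was at 1.17 ± 0.30 (SE; adjusted p = 0.0697). The measured genes of this neighbourhood did not share a direction.

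Liver pathways and cell types were then described by 38 gene lists, each gene by its brightest probe. Over 4438 genes the median line difference was -0.0092, 25 genes (0.563%) passed the threshold, 11 higher (0.248%) and 14 lower (0.315%), and 2097 genes lay above 0. At an unadjusted p of 0.05, 5.86% of genes were higher and 6.42% lower. Against these shares, few lists held any called gene.

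Of 32 interferon response genes, 1 passed, UBD, and 30 lay above 0, with a median of 0.32. On the high side, 6 had an unadjusted p under 0.05, among them OAS2, an antiviral oligoadenylate synthetase, at 0.87 ± 0.34 (SE), CXCL9, a T cell chemokine, at 0.85 ± 0.33, and the guanylate-binding proteins GBP2 at 0.31 and GBP1 at 0.42. The median was 0.46 in RFIpl and 0.078 in RFIplR, each against RFIneg. Without RFIpl 5 and RFIpl 7 the line median of the list was 0.077, whereas UBD stood at 1.57 and remained past the threshold (adjusted p = 0.000324).

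Fatty acid synthesis genes, 12 measured, had 0 past the threshold and 4 at an unadjusted p under 0.05, all higher, with a median of 0.21. ME1, the malic enzyme that supplies NADPH for lipogenesis, was at 0.96 ± 0.24 (SE; adjusted p = 0.0696). SCD, stearoyl-CoA desaturase, was at 0.73 ± 0.29, FASN, fatty acid synthase, at 0.44 ± 0.18 and ACACA, acetyl-CoA carboxylase, at 0.43 ± 0.20. The list's median was 0.33 in RFIpl and 0.089 in RFIplR against the low line. Without RFIneg 7 and RFIneg 8 the line median was 0.0011.

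Amino acid breakdown genes, 12 measured, had a median of 0.16 with 10 above 0 and none past the threshold. Against RFIneg the list's median was 0.042 in RFIpl and 0.29 in RFIplR. The aminotransferases GOT1 and GOT2 were at 0.33 ± 0.11 and 0.26 ± 0.11, SDSL, which degrades serine, at 0.33 ± 0.12 and TDO2, which opens tryptophan breakdown, at 0.20 ± 0.084. Of the 3 urea cycle genes measured, ARG1 passed, whereas NAGS, which makes the cycle's activator, was at -0.24 and OTC, ornithine transcarbamylase, at -0.081.

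Of 9 polyamine genes, 1 passed, OAZ3. ODC1, the decarboxylase that antizymes bind, was at 0.32 ± 0.12 (SE; adjusted p = 0.266) and AMD1, which makes the aminopropyl donor, at 0.31 ± 0.12 (adjusted p = 0.256). AZIN2, an antizyme inhibitor, was at -0.27. The list's median was 0.11.

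Of 15 genes of the growth hormone and IGF axis, 1 passed, STAT5A, on the low side, and the median was -0.038. GHR, the growth hormone receptor, was at 0.23 ± 0.11 (SE), JAK2, its kinase, at -0.22 ± 0.085, and the binding proteins IGFBP4 and IGFBP1 at 0.27 ± 0.088 and 0.81 ± 0.38. None of these 4 passed, and they did not share a sign.

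Heat shock genes of the cytosol, 10 measured, had a median of 0.32 with 9 above 0 and none past the threshold. BAG3, an HSP70 cochaperone, was at 0.68 ± 0.24 and HSP90AA1 at 0.34 ± 0.14. The unfolded protein response list had a median of 0.14, with the endoplasmic reticulum chaperones HSPA5 at 0.39 ± 0.13 and CALR at 0.24 ± 0.10. None of its 10 members passed. The list's median was 0.025 in RFIpl and 0.26 in RFIplR, each against RFIneg. Within the high line, 4 of its 10 members had an unadjusted feeding p under 0.05 in limma, against 223 of all 4438 genes.

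In the cytochrome P450 and conjugation list, 15 of 19 lay above 0 with a median of 0.12, none of the brightest probes passed, and CYP3A29 passed on another probe. CYP1A1 was at 1.26 ± 0.40 (SE), SULT1A3, a sulfotransferase, at 0.68 ± 0.21 and CYP2B22 at -0.93 ± 0.32, the smallest adjusted p being 0.144. Among 8 genes of bile acid synthesis and transport, ABCC2, the canalicular conjugate exporter, was at -0.54 ± 0.15 and NR0B2, a nuclear repressor of bile acid synthesis, at -0.83 ± 0.38. Neither passed.

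Of 37 cytosolic ribosomal protein genes, 1 passed, RPL14, at -0.24 ± 0.055 (SE; adjusted p = 0.0427), and 32 lay below 0. Their median was -0.054, and it stood at 0.057 under normexp. Against RFIneg their median was -0.10 in RFIpl and -0.021 in RFIplR. RPS21 and RPL30 were at -0.14 and -0.11 and did not pass. The other RPL14 probes, between -0.37 and -0.14, did not pass either. The median was 0.046 for 19 acute phase proteins, 0.042 for 23 respiratory chain genes, -0.073 for 14 nuclear receptors, 0.014 for 16 antioxidant genes and -0.012 for 12 cell cycle genes. In these lists no gene passed by its brightest probe, and APCS, of the acute phase list, passed on another probe in the opposite direction.

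Markers of other cells were measured in the same way. In bulk tissue, fewer cells of a type and less RNA per cell cannot be told apart. Of 10 stellate cell and fibroblast markers, 9 lay below 0 and RGS5 passed; COL1A2, a chain of type I collagen, was at -0.69 ± 0.18 (SE; adjusted p = 0.0779), the matrix protein SPARC at -0.51 and decorin (DCN) at -0.47. The mean of the 10 markers, each centred on its own mean over all pigs, ran from -0.022 to 0.65 in RFIneg, from -0.46 to 0.25 in RFIpl and from -0.56 to 0.19 in RFIplR, with overlap. All 10 were above background on every array. Their part in the lower RGS5 and S100A4 signals was not tested.

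Endothelial markers lay below 0 for 10 of 11, with a median of -0.15 that was -0.39 on the second scan day and 0.080 on the first. All 5 neutrophil markers lay below 0, with a median of -0.44 that was -0.11 on the first scan day. The centred mean was 1.73 in RFIneg 6 and 1.17 in RFIneg 8, both scanned on the second day, and from -0.41 to 0.13 in the other low line pigs. Its group medians were -0.028 in RFIneg, -0.11 in RFIpl and -0.25 in RFIplR. Of 9 macrophage markers, 8 lay above 0, with a median of 0.077 that was -0.053 on the second scan day. Of 3 pancreatic acinar markers, the proteases CPA1 and CELA2A were at -1.57 ± 0.40 (SE; adjusted p = 0.0667) and -1.60 ± 0.64, and amylase (AMY2) was at 0.11. The acinar median was -0.32 on the first scan day. None of these markers passed the threshold, and their part in the called genes was not tested.

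**Figure D5:**
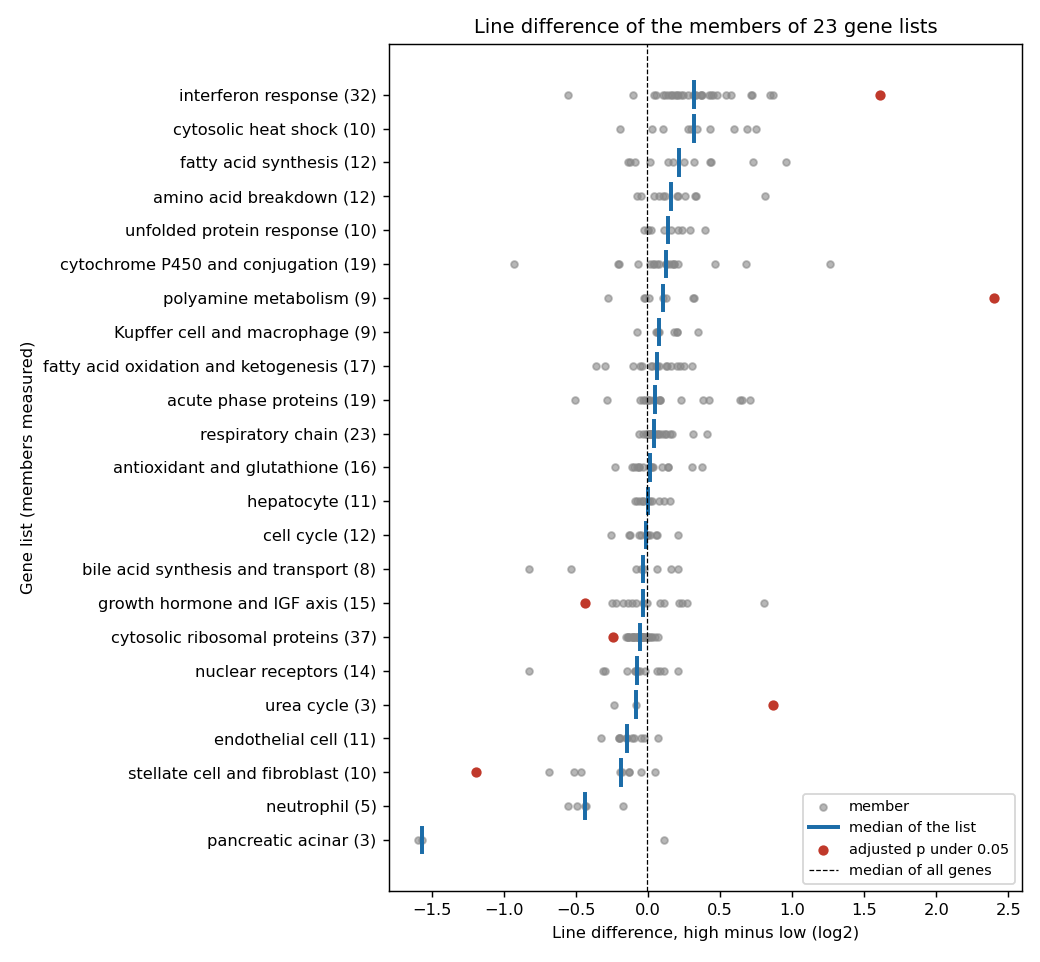
Line difference (x axis, log2) of each measured member of 23 gene lists (y axis, number of members in brackets). Grey points are members, red points passed an adjusted p of 0.05, blue bars are list medians and the dashed line is the median of all genes. List medians run from -1.57 for the 3 acinar markers to 0.32 for the interferon list, and 6 members in all are red.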

How the data were processed

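Liver RNA of 24 pigs was measured on 1-colour arrays. The scanner intensity values were produced by Agilent Feature Extraction 10.7.3.1, per the file headers, which had subtracted background. R 2.10.0 is named in the submitters' processing notes. The authors' deposited log2 table equals log2 of the same intensity values minus each array's median over 27564 listed features, and was used as an alternative. Here log2 of the processed signal minus each array's 75th percentile was used. Control probes were left out, outlier spots were set to missing, and repeated spots averaged. Probes well above background on at least 6 of 8 arrays of any group were kept. The group was fitted with limma 3.58.1 (lmFit, eBayes) in R 4.3.3, with Benjamini-Hochberg adjustment over 29665 probes. The code was tested on simulated data.

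The members and lists were chosen with earlier results of these data known. Probes were named through RefSeq (Sscrofa11.1) from accessions, symbols and descriptions; 12258 of the array's probes have 1 symbol and 30993 none. Named genes are the 15 largest called differences in each direction (the probe with the smallest p), the 3 largest among probes without a symbol, and up to 4 members with the smallest p in a list; 1 called gene that this rule names and 1 list member are not reported here. No spot was saturated. Each slide held 4 arrays of all 3 groups, and 6 slides were scanned on 2 days. Alternatives covered background correction, scaling, filters, batches, weights and left-out pigs. The number of arrays limits the precision.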

Additional observations from a re-analysis of the deposited data

Results flagged for a closer look

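In 110 groups of 8 examined, 11 had a pig far from the others of its group by Dixon's criterion, where chance gives about 5.5. In the low line, RFIneg 7 was high for OAZ3 at 0.23 against -2.86 to -2.02 in the other 7, RFIneg 6 was high for ARG1 at 6.68, and RFIneg 1 was high for P2RY1 at -1.78. In RFIpl, pig 7 was low for CYP3A29 at 5.52 and high for A_72_P050711 at 4.39, pig 4 was high for RGS5 at -1.60, and pig 3 was high for A_72_P427894 at -4.26 against -7.66 to -7.08 in the others. In RFIplR, pig 5 was high for CYTH4 at -2.59, pig 4 was high for KLF3 at 0.20 and low for A_72_P163516 at -6.16, and pig 1 was low for A_72_P182911 at -0.077. With each of these pigs left out in turn, the direction of the 36 named genes and probes was unchanged. This is a description, since they were picked with these pigs included.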

How the results depend on the processing

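With normexp background correction 43 probes passed, 21 higher and 22 lower, and 153 of the 164 probes kept their direction; HPSE stood at -0.068, SYK at -0.11, ESRP1 at -0.14, RNASE12 at -0.12 and CYTH4 at -0.034. Without a filter on dim probes 73 passed (38 and 35), with slide as a random block 241 (125 and 116), with slide as a fixed block 129 (67 and 62, 98 of them among the 164, and 13 of the 36 named calls lost), and with array weights 283 (130 and 153). Scan day 1 alone gave 22 (13 and 9) and scan day 2 alone 15 (8 and 7). Without slide 3 the count was 90 (47 and 43), without RFIneg 7 and 8 it was 62 (36 and 26), and without RFIplR 7 and 8 it was 103 (59 and 44). In all settings but normexp every one of the 164 probes that was measured kept its direction. They were picked on these same arrays, so this is a description. With 1 pig left out in turn the count ran from 89 without RFIneg 8 to 219 without RFIplR 1 (46 to 110 higher, 43 to 109 lower); it moved over 1.5 times without RFIneg 1, 2, 7 or 8 or RFIpl 6. Of the 36 named genes and probes, 15 kept their call with each of the 24 pigs left out and 21 lost it for at least 1 pig. The feeding contrast gave 0 to 1 probes with a pig left out, 1 on scan day 2 alone, 2 with array weights and 0 in the other settings that hold it; with line as 2 levels it is not in the model. The alternative that kept outlier spots was chosen after seeing the data. The labels give no pairing by replicate number. Of 24 same-number pairs, 8 correlated above 0.1, over a range from -0.186 to 0.424, and 5 correlated best with their own number; between RFIpl and RFIplR these were 5 and 4 of 8. With a replicate block 156 probes passed, 85 higher and 71 lower, of which 114 were among the 164, and 9 of the 36 named calls were not made. The causes of these shifts were not tested. Probes below background on part of the arrays, such as HPSE and ZAR1L, have differences limited by signal over background.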
